A study of Mus musculus with 3 samples.

Results

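The 5 LRRC8 genes encode the subunits of the volume-regulated anion channel, and all 5 (Lrrc8a, Lrrc8b, Lrrc8c, Lrrc8d and Lrrc8e) were found by name among the 51826 rows of the expression table. The family was selected on the values themselves, since Lrrc8d was picked for being higher in both treated libraries than in the control. Its differences from the control are therefore a description and carry no test. Messenger RNA had been sequenced in 3 libraries of ST2, a stromal cell line from mouse bone marrow, with 1 library in each group. All cells were transfected with both a plasmid and 30 nM of siRNA. The control received empty vector with control siRNA, the NELL2 overexpression cells received the NELL2 construct with control siRNA, and the Fn1 knockdown cells received empty vector with siRNA against Fn1. The cells were transfected populations, and which Fn1 siRNA was used and when RNA was taken are not given in the sources used here. The question was how the channel subunits stood when NELL2 was raised or its partner fibronectin was lowered.

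The channel opens when cells swell and lets chloride and small organic molecules leave, so that water follows and the cell returns to its volume. It is a hexamer that needs LRRC8A, while LRRC8B to LRRC8E join it in varying combinations and set what passes. LRRC8A has been linked to insulin and AKT signalling in adipocytes, and LRRC8C was first described as fad158, a gene of early adipocyte differentiation.

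Levels below are FPKM (fragments scaled to transcript length and library size). A comparison between genes also depends on the transcript lengths used, which are not given in the sources used here. The estimated depth was 23000000 fragments for the control, 23700000 for NELL2 overexpression and 24200000 for Fn1 knockdown, and 12306, 12329 and 12220 genes reached 1 FPKM. Sets of 3 values below keep this order of libraries. Intervals are exact 95% intervals for counting error on estimated fragments (Poisson for a level, binomial for a fold) and hold nothing of the spread between cultures. A gene was called when log2(FPKM + 1) differed by 1 or more, which is 2-fold on this scale, and 1 FPKM was reached in either library. Of the targeted genes, Nell2 was at 0.640, 326 and 1.06 FPKM and Fn1 at 2802, 2489 and 137 FPKM. All 9 stromal markers were above 1 FPKM and summed to 3414 to 3777 FPKM. The 6 haematopoietic markers summed to 4.65, 4.69 and 1.96 FPKM, most of it Cd68 at 4.08, 3.54 and 1.57 FPKM. Adgre1, named after its values were seen, was highest with NELL2 overexpression, at 0.426, 0.950 and 0.273 FPKM. Ptprc was at 0.0633 FPKM or less and Cd3e was listed at 0. The part of this lower Cd68 after Fn1 knockdown in the results was not tested. Of the other markers, the 4 endothelial ones summed to 1.75 to 1.97 FPKM and the 4 epithelial ones to 0.291 to 0.412 FPKM.

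Lrrc8b, Lrrc8c and Lrrc8d lie side by side on the plus strand of chromosome 5 (GENCODE M21, GRCm38). Lrrc8b spans chr5:105415775-105490074, Lrrc8c spans chr5:105519388-105613018 and Lrrc8d spans chr5:105699969-105832436. Lrrc8a is on chromosome 2 (chr2:30237715-30263790) and Lrrc8e on chromosome 8 (chr8:4226827-4237470), both also on the plus strand. The encoded proteins are 810 residues long for Lrrc8a, 803 for Lrrc8b and Lrrc8c, 859 for Lrrc8d and 795 for Lrrc8e, by translation of the longest coding transcript. Between pairs of subunits, 48.1% to 62.3% of aligned residues were identical, the least alike being Lrrc8b and Lrrc8e and the most alike Lrrc8c and Lrrc8e. At the level of RNA they were distinct, with no stretch of 31 bases shared in any of the 10 pairs.

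The start regions of Lrrc8d and of its neighbour Lrrc8c are shown because these adjacent genes differed most within the family. Each run holds 250 bases before and 50 after a transcription start (RefSeq, GRCm38.p6, plus strand). The first Lrrc8d window is chr5:105699719-105700018, the second is chr5:105700560-105700859 and that of Lrrc8c is chr5:105519221-105519520. Capitals mark GGGCGG (the GC box) and CCAAT (the CCAAT box) on either strand.
Lrrc8d, first start: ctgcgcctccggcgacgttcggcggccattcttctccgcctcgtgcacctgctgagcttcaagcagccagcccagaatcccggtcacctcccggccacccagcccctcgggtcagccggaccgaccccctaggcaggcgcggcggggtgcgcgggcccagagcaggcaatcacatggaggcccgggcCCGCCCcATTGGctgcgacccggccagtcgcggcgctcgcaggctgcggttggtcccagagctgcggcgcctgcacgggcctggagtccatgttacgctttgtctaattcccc
Lrrc8d, second start: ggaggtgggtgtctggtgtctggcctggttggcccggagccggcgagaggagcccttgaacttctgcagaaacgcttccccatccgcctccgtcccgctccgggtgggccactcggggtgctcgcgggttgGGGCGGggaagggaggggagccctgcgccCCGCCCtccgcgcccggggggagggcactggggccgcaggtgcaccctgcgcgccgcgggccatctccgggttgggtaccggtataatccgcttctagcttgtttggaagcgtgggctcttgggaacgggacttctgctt
Lrrc8c: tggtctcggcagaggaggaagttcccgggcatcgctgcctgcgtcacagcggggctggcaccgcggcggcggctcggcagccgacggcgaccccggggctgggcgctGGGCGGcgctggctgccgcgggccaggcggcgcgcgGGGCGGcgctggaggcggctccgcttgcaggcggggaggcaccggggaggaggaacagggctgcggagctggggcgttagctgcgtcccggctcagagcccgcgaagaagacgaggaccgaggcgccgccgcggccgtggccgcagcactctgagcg

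The first Lrrc8d window held 1 GC box next to 1 CCAAT box, the second held 2 GC boxes, and Lrrc8c held 2 GC boxes and no CCAAT box. A GC box was present in all 6 windows of the family and in 35.7% of the 32851 windows of all genes, and CCAAT in 2 of the 6 (the other one in Lrrc8b) and in 37.4% of all. On either strand, TATAAA was in none of the 6 windows and in 13.6% of all, and TGGAAA, the core of the element bound by the tonicity factor NFAT5, in none and in 21.4% of all. The AP-1 site TGAGTCA was in the Lrrc8b window alone of the 6 and in 5.20% of all. No pair among these 5 motifs shared a base in the windows printed. The windows were rich in G and C, at 60.0% for Lrrc8e to 78.0% for Lrrc8b and Lrrc8c, with both Lrrc8d windows between them at 71.3% and 70.3% and a median of 52.7% over all genes.

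Lrrc8d, whose subunit lets taurine and other organic osmolytes, and drugs such as cisplatin, through the channel, was at 8.50 FPKM (7.91 to 9.12) in the control library. It was at 31.8 FPKM (30.6 to 32.9) with NELL2 overexpression and at 30.5 FPKM (29.4 to 31.6) after Fn1 knockdown. The treated libraries were thus the high ones and the control the low one, which is the pattern the gene was chosen for. Relative to the control this was 3.74-fold (3.45 to 4.05) and 3.59-fold (3.31 to 3.89), or 1.79 and 1.73 in log2(FPKM + 1). Read with the 3929 bases of its longest coding transcript, the levels correspond to about 768, 2958 and 2901 fragments. More cells that carry a transcript and more of it in each cell cannot be told apart in such bulk RNA.

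Lrrc8d was the 1 member of 5 called in either comparison, and it was called higher. In the whole table, 0.652% of 12572 genes were called with NELL2 overexpression (0.374% higher) and 1.23% of 12574 after Fn1 knockdown (0.684% higher), and 0.118% of 12733 genes were called higher in both. Since the rule used these contrasts, nothing is read from the member's count. By the size of the log2 difference Lrrc8d was 14th from the top with NELL2 overexpression and 22nd after Fn1 knockdown. Of the 13 genes at 5 FPKM or more that were called higher in both, it stood 7th by the smaller of its differences.

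The treated libraries were also set against each other, which for Lrrc8d is a description too, since both values were used to choose it. Lrrc8d after Fn1 knockdown was at 96.0% (91.2% to 101%) of its level with NELL2 overexpression, a difference of -0.06 in log2(FPKM + 1). None of the 5 members was called in this comparison, against 1.29% of 12596 genes. Both comparisons with the control rest on the same control library. A low value in that library and a rise under both treatments cannot be told apart here.

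Lrrc8d also had the most annotated transcripts of the family, 10, against 4 for Lrrc8c, 2 for Lrrc8a and Lrrc8e and 1 for Lrrc8b. They run from 366 to 5736 bases, a 15.7-fold range, and the 5 that are listed as coding include 3 short fragments of 366, 498 and 593 bases beside the full transcripts of 3923 and 3929 bases. FPKM divides by length, and the table gives 1 value per gene, so a shift of fragments between long and short transcripts would change FPKM as well. Of the 45 pairs of Lrrc8d transcripts, 25 differ in length by at least the observed fold, and the part of transcript choice in the result was not tested. If every fragment had come from the shortest transcript, the levels would stand for about 72, 276 and 270 fragments. The antisense gene Lrrc8dos overlaps an exon of Lrrc8d and was at 0.0473, 0.143 and 0 FPKM. Other genes held 5.08% of the 31-base stretches of the Lrrc8d transcript, most often Lrrc8dos.

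Lrrc8a, the subunit without which no channel forms, was almost level. It was at 9.82 FPKM (9.21 to 10.5) in the control, 10.0 FPKM (9.40 to 10.6) with NELL2 overexpression and 10.1 FPKM (9.46 to 10.7) after Fn1 knockdown. The treated libraries were at 102% of the control in both comparisons, with counting intervals of 93.3% to 111% and 93.8% to 112%. A pair of annotated genes overlaps exons of Lrrc8a, the readthrough gene Gm28035 on the same strand, at 0.0207 FPKM or less, and the antisense gene 1700084E18Rik, at 0.258 FPKM or less. Lrrc8a shares 68.0% of its 31-base stretches with other genes, chiefly Gm28035, so its level depends on how reads were divided between the pair.

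**Figure D1:**
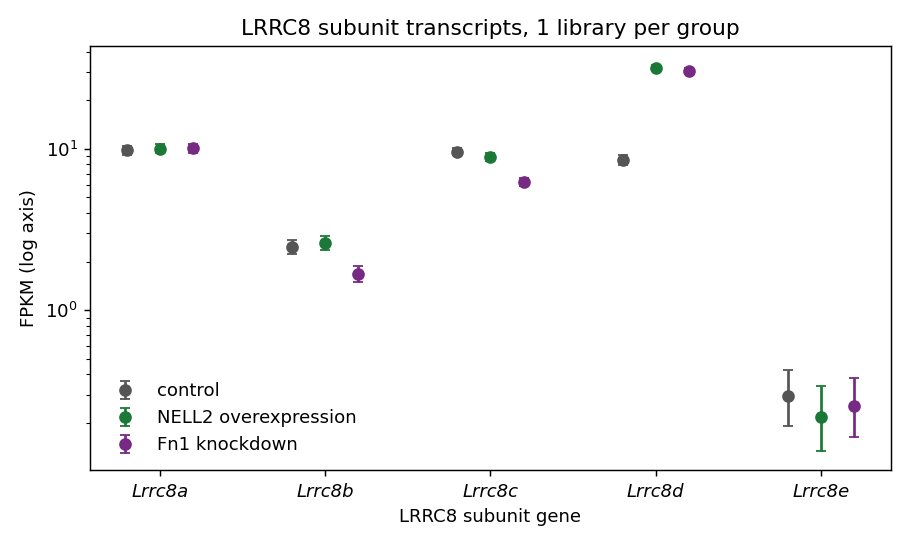
FPKM of the 5 LRRC8 genes (log axis), 1 library each for control, Fn1 knockdown and NELL2 overexpression, with exact 95% Poisson intervals on estimated fragments. Lrrc8d stands at 8.50 FPKM in the control and above 30 FPKM in both treated libraries, while Lrrc8a stays near 10 FPKM.

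Lrrc8c was lower after Fn1 knockdown without being called. It was at 9.59 FPKM (9.12 to 10.1) in control cells, 8.89 FPKM (8.44 to 9.35) with NELL2 overexpression and 6.24 FPKM (5.87 to 6.63) after knockdown. The knockdown library lay below both others with no overlap of the intervals, at 65.1% (60.1% to 70.4%) of the control, a difference of -0.55 in log2(FPKM + 1). Of all genes tested, 4.02% had a difference as low or lower. With NELL2 overexpression the level was 92.6% (86.2% to 99.6%) of the control, and 22.1% of genes were as low or lower.

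Lrrc8b, another of the subunits that join LRRC8A, was also lowest after Fn1 knockdown. It was at 2.47 FPKM (2.23 to 2.73) in the control, 2.61 FPKM (2.36 to 2.87) with NELL2 overexpression and 1.68 FPKM (1.49 to 1.89) after Fn1 knockdown. The knockdown library was again the low one, at 68.0% (57.9% to 79.5%) of the control, and was not called, with 9.25% of genes as low or lower. The NELL2 overexpression library was at 106% (91.8% to 122%). Its single annotated transcript shares no 31-base stretch with any other gene.

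Lrrc8e, which with LRRC8A forms channels that pass cyclic GMP-AMP, was the rarest subunit and did not reach 1 FPKM, so 4 of the 5 members entered the comparisons. It was at 0.292, 0.219 and 0.256 FPKM, or about 26, 20 and 24 fragments. The libraries overlapped widely, the folds being 0.751 (0.395 to 1.39) with NELL2 overexpression and 0.876 (0.482 to 1.59) after Fn1 knockdown, and a difference smaller than these intervals was not detectable at this depth.

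**Figure D2:**
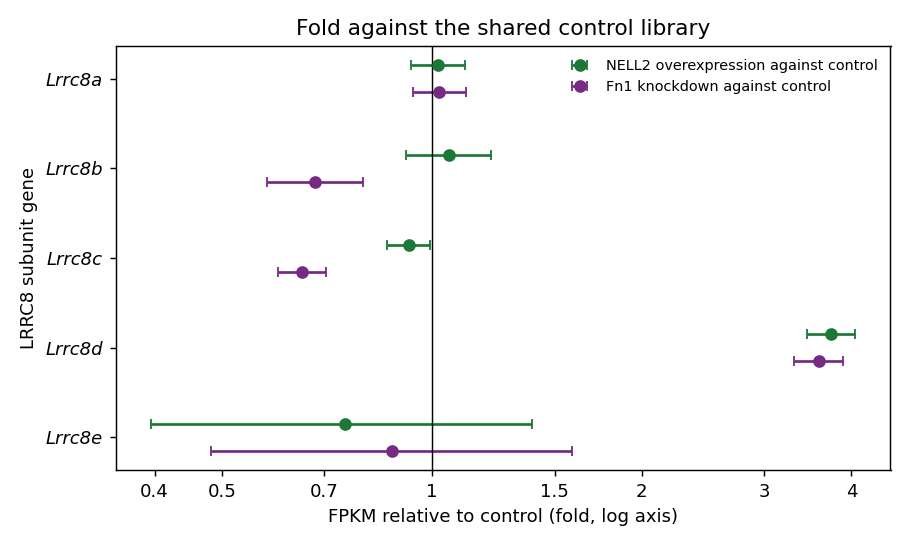
FPKM of each LRRC8 gene relative to the shared control library (fold, log axis) with exact 95% binomial intervals for counting error. Lrrc8d lies at 3.74 and 3.59, Lrrc8b and Lrrc8c lie at 0.680 and 0.651 after Fn1 knockdown, and Lrrc8a lies at 1.02 in both.

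The make-up of the family differed between the libraries. Since Lrrc8d was chosen for being higher in both treated libraries, its larger share there follows from that choice. The shares are a description. In the control, Lrrc8a, Lrrc8c and Lrrc8d were near one another at 32.0%, 31.3% and 27.7% of the summed FPKM, followed by Lrrc8b at 8.05% and Lrrc8e at 0.953%. The intervals of Lrrc8a and Lrrc8c overlapped, and the lower end for Lrrc8c and the upper end for Lrrc8d were both 9.12 FPKM when rounded, the former being just above. With NELL2 overexpression Lrrc8d made up 59.4% of the sum, Lrrc8a 18.7%, Lrrc8c 16.6%, Lrrc8b 4.88% and Lrrc8e 0.410%. After Fn1 knockdown the shares were 62.6% for Lrrc8d, 20.6% for Lrrc8a, 12.8% for Lrrc8c, 3.44% for Lrrc8b and 0.525% for Lrrc8e. By FPKM, Lrrc8d was thus first in the treated libraries, with Lrrc8a ahead of Lrrc8c. By estimated fragments, which also grow with transcript length, Lrrc8c was first in the control at 41.8%, before Lrrc8a at 26.3% and Lrrc8d at 20.8%. In the treated libraries Lrrc8d was first on this basis too. Lrrc8c was ahead of Lrrc8a with NELL2 overexpression, at 25.0% against 17.3%. After Fn1 knockdown they were level within counting error, at 19.9% and 19.8%, or about 1054 and 1047 fragments.

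Set against Lrrc8a in the same library, Lrrc8d stood at 0.866 for control cells, 3.18 with NELL2 overexpression and 3.03 after Fn1 knockdown. The same ratio for Lrrc8c was 0.977, 0.888 and 0.620, and for Lrrc8b 0.251, 0.261 and 0.167. The 5 genes summed to 30.7, 53.5 and 48.7 FPKM. Without Lrrc8d the sums were 22.2, 21.7 and 18.2 FPKM, or 97.9% and 82.3% of the control in the treated libraries.

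**Figure D3:**
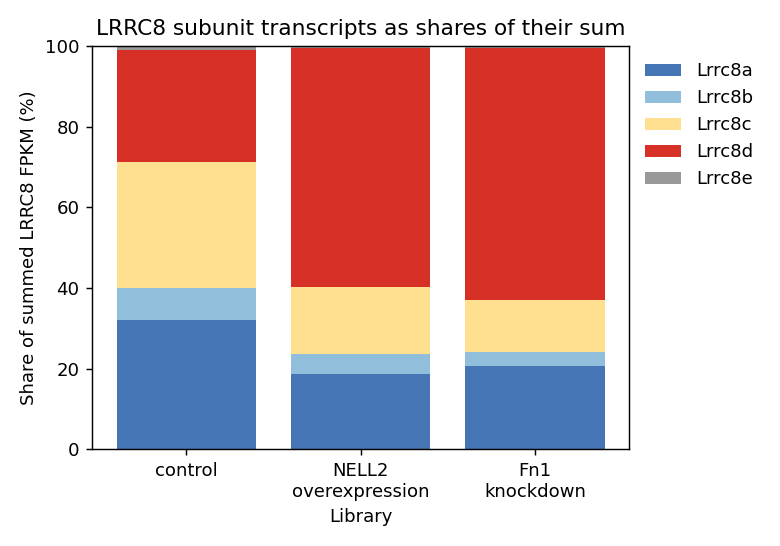
Share of each LRRC8 gene in the summed FPKM of the family (%), 1 bar per library. The Lrrc8d share is 27.7% for control cells and 59.4% and 62.6% in the treated libraries. Lrrc8d was chosen for its higher values there.

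Position in the genome was examined next, since 3 of the subunits are neighbours. Within 1 Mb of the start of Lrrc8d, 11 other genes of at least 1 FPKM and a unique name were measured, and none was called in either comparison with the control, a count near the background of 0.652% and 1.23%. Their differences in log2(FPKM + 1) ran from -0.21 to 0.89 with NELL2 overexpression and from -0.55 to 0.34 after Fn1 knockdown. Lrrc8c ends 87.0 kb before Lrrc8d, and on the other side the nearest gene of this level was the pseudogene Gm10359, at 38.9, 43.0 and 40.2 FPKM. On the far side of Lrrc8b lay Gbp6, an interferon-inducible GTPase gene, at 8.24, 16.1 and 10.4 FPKM. With NELL2 overexpression the differences of Gbp9, Gbp4, Gm43302, Gbp10 and Gbp6 were 0.36, 0.63, 0.69, 0.47 and 0.89. The rest of the window, Lrrc8d apart, lay between -0.21 and 0.14. After Fn1 knockdown the same genes were at -0.17, 0.04, 0.31, -0.27 and 0.30. All but Gbp6 were named after their values were seen. The genes next to the other subunits were also not called. These were Kyat1 (1.26, 1.59 and 0.983 FPKM) and Phyhd1 (2.97, 3.83 and 3.01 FPKM) beside Lrrc8a, and Evi5l (8.52, 8.14 and 7.52 FPKM) and Map2k7 beside Lrrc8e. The name Map2k7 stood on 2 rows, the higher at 9.75, 9.66 and 11.1 FPKM.

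**Figure D4:**
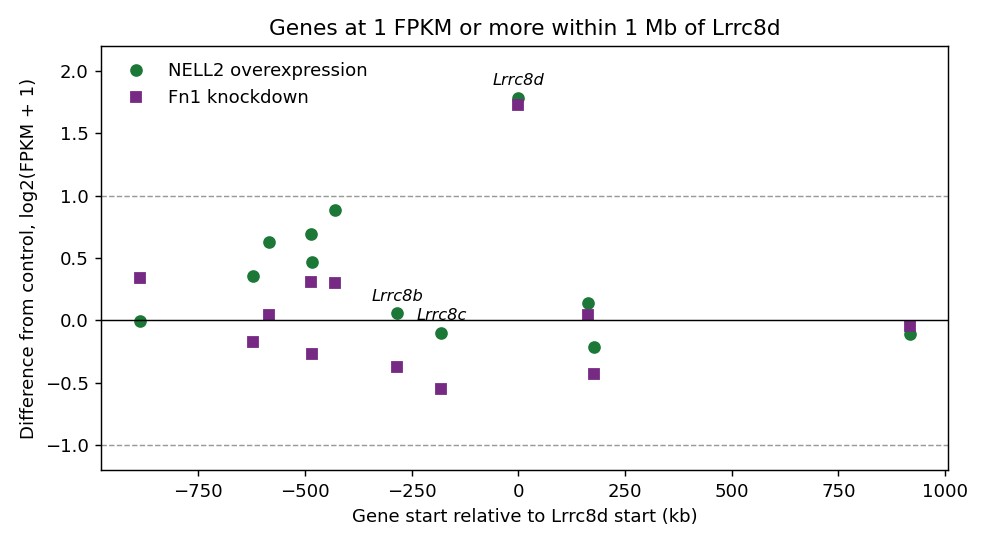
Difference from the control in log2(FPKM + 1) for genes at 1 FPKM or more within 1 Mb of Lrrc8d, by distance of their start from the start of Lrrc8d (kb), with dashed lines at the 2-fold limits. Lrrc8d lies at 1.79 and 1.73, and the 11 other genes lie between -0.55 and 0.89.

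The genes with the pattern most like that of Lrrc8d were found by the distance between their pairs of log2 differences, over 3 libraries and 8953 other genes at 5 FPKM or more. The nearest was Slc10a3, a member of the bile acid transporter family, at 2.85, 11.9 and 13.0 FPKM (distance 0.14). Dcbld2, a transmembrane receptor-like protein, followed at 6.98, 20.3 and 25.6 FPKM (distance 0.37). Bola1, a mitochondrial iron-sulfur protein, was at 1.59, 9.82 and 11.7 FPKM (distance 0.63), and Vash2, a tubulin carboxypeptidase, at 4.14, 11.2 and 12.2 FPKM (distance 0.65). Prdx6, a peroxiredoxin, was at 32.2, 71.5 and 112 FPKM (distance 0.66). These 5 genes lie on chromosomes other than that of Lrrc8d. Annotated transcripts numbered 4 for Slc10a3, with a longest-to-shortest ratio of 1.18, and 7 for Dcbld2, with a ratio of 11.4.

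The genes most like Lrrc8a and Lrrc8c were found in the same way. Among the nearest to Lrrc8a were Tomm34 and Blcap, at distances of 0.0025 and 0.0028, and Tomm34 was at 13.5, 13.7 and 13.8 FPKM. The nearest to Lrrc8c were the cell cycle phosphatase gene Cdc25b (6.35, 5.93 and 4.02 FPKM), Klhl13 (9.53, 8.92 and 6.25 FPKM) and the matrix proteoglycan gene Fmod (220, 208 and 149 FPKM), within 0.022.

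Other genes of volume regulation were taken from 4 lists with 57 genes, of which 43 reached 1 FPKM in any library. None of the 43 was called in either comparison, where 0.652% and 1.23% of all genes tested were called, so that a count of 0 is near the background. Their median difference in log2(FPKM + 1) was 0.0083 with NELL2 overexpression and -0.0025 after Fn1 knockdown, beside 0.0071 and -0.0030 over all 12733 genes at 1 FPKM or more. With NELL2 overexpression 25 were above and 18 below the control, and after Fn1 knockdown 21 were above and 22 below.

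Among the 16 measured genes of other anion channels, Clic1, an intracellular channel protein, was highest in the control, at 171, 171 and 164 FPKM. The differences ran from -0.13 (Ano6, a calcium-activated channel and lipid scramblase, 33.5 to 30.4 FPKM) to 0.29 (Clcn2, a plasma membrane chloride channel, 4.89 to 6.20 FPKM) with NELL2 overexpression. After Fn1 knockdown they ran from -0.28 (Ttyh3, 22.5 to 18.3 FPKM) to 0.64 (Clcn6, an endosomal chloride transporter, 3.10 to 5.38 FPKM). Pacc1, the proton-activated chloride channel listed under its older name Tmem206 and also named after its values were seen, was at 4.88, 5.09 and 7.06 FPKM.

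The 10 measured cotransport and kinase genes were led by Wnk1, a chloride-sensing kinase, at 61.9, 56.4 and 56.7 FPKM. With NELL2 overexpression the lowest difference in this list was that of Wnk3, a kinase of the same family (1.21 to 0.782 FPKM, -0.31), and the highest that of the potassium-chloride cotransporter Slc12a4 (42.1 to 44.2 FPKM, 0.07).

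Of the 7 measured osmolyte genes, the aldose reductase Akr1b3, which makes sorbitol, was highest in the control (67.9, 77.1 and 64.1 FPKM) and stood highest with NELL2 overexpression (0.18), whereas the inositol transporter Slc5a3 stood lowest (8.21 to 5.87 FPKM, -0.42). After Fn1 knockdown the tonicity factor Nfat5 was lowest (13.6 to 8.28 FPKM, -0.65) and the kinase Sgk1 highest (47.7 to 82.7 FPKM, 0.78). The taurine transporter Slc6a6, which brings in an osmolyte that LRRC8D channels release and was chosen for naming after its values were seen, was at 58.8, 56.1 and 51.8 FPKM.

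In the list of potassium channels, sodium pump, water channels and mechanosensors, 10 genes were measured and the sodium pump subunit Atp1b3 was highest (115, 117 and 122 FPKM). The mechanosensor Piezo1 stood lowest with NELL2 overexpression (93.9 to 83.5 FPKM, -0.17), and the water channel Aqp1 stood lowest after Fn1 knockdown (19.3 to 9.54 FPKM, -0.94). Another water channel, Aqp5, stood highest in both, at 3.48, 4.83 and 5.35 FPKM (0.38 and 0.50).

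LRRC8 proteins resemble pannexins and connexins in build. Of 22 genes for large-pore channels, 10 were measured, with medians of -0.025 and -0.033. None was called, a count near the background of 0.652% and 1.23%. The connexin 43 gene Gja1 was highest (93.4, 102 and 97.1 FPKM). Panx1, an ATP-releasing pannexin, stood highest in both comparisons (3.33, 5.23 and 4.42 FPKM; 0.52 and 0.32), Gjb5 lowest with NELL2 overexpression (1.17 to 0.945 FPKM, -0.16), and Panx3, a pannexin of bone cells, lowest after Fn1 knockdown (1.51 to 0.721 FPKM, -0.54).

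Cyclic GMP-AMP, a messenger of cytosolic DNA sensing, can enter cells through LRRC8 channels. All 7 genes of that pathway were measured, with medians of 0.13 and -0.051, beside 0.0071 and -0.0030 over all genes. None was called, where 0.652% and 1.23% of all genes tested were called. Cgas, the enzyme that makes the messenger (as Mb21d1), stood highest with NELL2 overexpression (1.97 to 2.60 FPKM, 0.28) and the transporter Slc19a1 lowest (8.08 to 7.53 FPKM, -0.09). After Fn1 knockdown its receptor Sting1 (as Tmem173) stood lowest (13.4 to 9.32 FPKM, -0.48), and the exporter Abcc1, which had the highest control level at 19.8 FPKM, stood highest at 29.9 FPKM (0.57).

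Of the list on insulin signalling, to which LRRC8A has been linked, all 6 genes were measured, with medians of -0.0096 and 0.024. None was called, a count near the background of 0.652% and 1.23%. Akt1 was highest in level (155, 149 and 153 FPKM). With NELL2 overexpression the adaptor Grb2 stood highest (20.0 to 21.1 FPKM, 0.07) and the caveolar protein Cav1 lowest (19.2 to 16.3 FPKM, -0.23). After Fn1 knockdown the kinase Akt2 stood just inside the limit, from 23.0 to 45.6 FPKM (0.96), and Cav1 lowest (15.2 FPKM, -0.32). Grb2, which binds LRRC8A, was next to Akt2 at 38.1 FPKM (0.90).

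Lrrc8c was set beside 3 other fad genes from the same screen of early adipogenesis. None of the 3 was called, a count near the background of 0.652% and 1.23%. Fndc3b (fad104) was at 38.4, 40.8 and 61.5 FPKM (0.08 and 0.66), Noc3l (fad24) at 9.70, 9.43 and 10.8 FPKM (-0.04 and 0.14) and Sh3pxd2b (fad49) at 23.9, 24.7 and 24.4 FPKM (0.04 and 0.03).

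**Figure D5:**
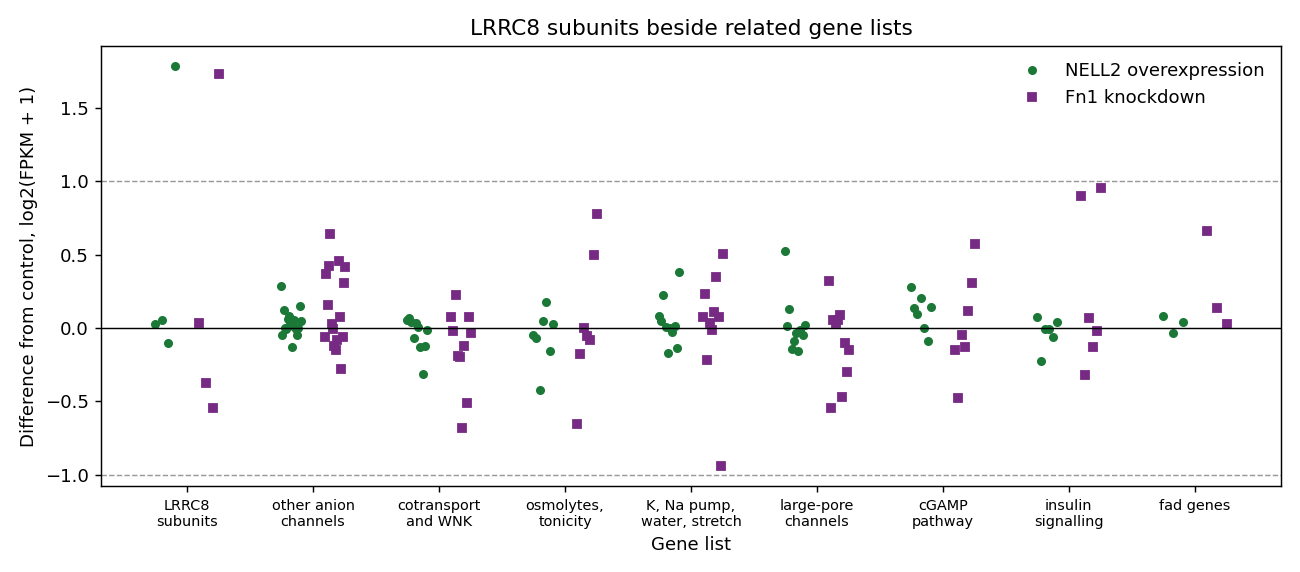
Difference from the control in log2(FPKM + 1) for the 4 LRRC8 genes and the 69 genes of related lists that reached 1 FPKM, with dashed lines at the 2-fold limits. Lrrc8e, below 1 FPKM, is not drawn. Lrrc8d is the only gene plotted beyond these limits, and Akt2 (0.96) and Aqp1 (-0.94) after Fn1 knockdown come nearest.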

How the data were processed

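Polyadenylated RNA of 3 ST2 libraries (control, NELL2 overexpression and Fn1 knockdown, 1 each) was sequenced as paired reads of 150 bases on an MGISEQ-2000. Reads were mapped with HISAT2, and DESeq and GRCm38 are named in the submitters' processing notes. The authors deposited FPKM values for each gene, which were used here. How these were computed, the annotation and strand use are not given in the sources used here. FPKM replaced the counts that the stated methods need, so no count model was run.

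Log2 differences, calls and likeness were computed over the whole table with Python 3.11.15, pandas 2.3.3 and SciPy 1.17.1, with a pseudocount of 1 FPKM. With 1 library per group no test was made. Fragments were estimated from FPKM, the longest coding transcript (GENCODE M21) and a depth. That depth made the most frequent small value of FPKM times length equal 1 fragment. It was taken among genes with 1 transcript of 600 bases or more. The procedure was run on simulated data in which each gene had a single length. Division of fragments among several transcripts was therefore not tested. Intervals cover counting error only. Of the table's names, 92.0% occur in GENCODE M21, and older symbols were matched through RefSeq (GRCm38.p6). Protein identity was computed with Biopython 1.88 from translated GENCODE transcripts.

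The members and lists were chosen with earlier results of these data known. Named were the members, Nell2 and Fn1, in each list the called genes or else the highest in the control and the extremes of difference among genes at 1 FPKM or more, the nearest and overlapping genes, and the genes most like a member (5 for Lrrc8d, 3 for Lrrc8a and Lrrc8c). Some genes that this rule names are not reported here. Alternatives were other pseudocounts, filters, cutoffs, scaling and fragment-based values.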

Additional observations from a re-analysis of the deposited data

How the results depend on the processing

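Lrrc8d stayed the 1 member called in each comparison with the control under every pseudocount and scaling tried, and none was called between the treated libraries. Lrrc8d was chosen on these values, so this describes the settings and is no test of its rise. The log2 difference of Lrrc8d was 1.45 and 1.40 with a pseudocount of 5, for NELL2 overexpression and Fn1 knockdown. It was 1.90 and 1.84 from the FPKM ratio without a pseudocount. With the shortest transcript length, chosen after seeing the data, the counting interval of the fold widened to 2.86 to 4.89 for NELL2 overexpression and 2.74 to 4.69 for Fn1 knockdown. As a share of estimated fragments, which favours long transcripts by construction, Lrrc8d was 20.8%, 50.3% and 54.7% of the family in the 3 libraries.

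Counts over the whole table depended on low values and on the cutoff, and are given as higher and lower. With a pseudocount of 0.1 they were 102 and 76 for NELL2 overexpression, 179 and 179 for Fn1 knockdown, and 166 and 187 for Fn1 knockdown against NELL2 overexpression, and with a pseudocount of 5 they were 15 and 11, 29 and 21, and 25 and 21. A 1.5-fold cutoff gave 193 and 132, 367 and 417, and 358 and 448, and a filter of 5 FPKM gave 25 and 22 for NELL2 overexpression. The main counts were 47 and 35, 86 and 69, and 79 and 83. Of the related lists, 2 genes (Aqp1 and Wnk3, both lower) were called after Fn1 knockdown with a pseudocount of 0.1. Among values of single members, a pseudocount of 5 moved Lrrc8b and Lrrc8c after Fn1 knockdown from -0.37 and -0.55 to -0.16 and -0.38, and Lrrc8b and Lrrc8c between the treated libraries to -0.19 and -0.30. From the FPKM ratio without a pseudocount Lrrc8b after Fn1 knockdown was at -0.56. Removing the filter cannot change a call at a pseudocount of 1, and the scaling factors (0.998 to 1.004) were so near 1 that this setting tests little. No paired analysis was possible because there was a single library in every group, and for that reason no library could be left out.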

Other observations

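Across the table, genes called here had a lower median number of annotated transcripts than all genes. Over 12427 genes at 1 FPKM or more with a unique annotated name, the median was 5 transcripts, and 14.7% had a single one. The 78 genes called with NELL2 overexpression had a median of 3, with 32.1% single, and the 152 called after Fn1 knockdown a median of 4, with 21.1% single. Of the 13 such genes called higher in both, 2 had a single transcript and the median ratio of longest to shortest transcript was 1.63, against 5.50 over all genes and 15.7 for Lrrc8d. These values are a description with no test.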
